A study of Mus musculus with 48 samples.

Results

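The responses of wild-type macrophages to lipopolysaccharide (LPS) and to R848 (resiquimod) were compared directly, library against library and mouse by mouse. The comparison is between 8 of the 48 libraries of the study, the 4 LPS and the 4 R848 libraries of wild-type (WT) mice 1 to 4, chosen by genotype and treatment labels alone and paired by mouse number. The tests were fitted on 12 WT libraries, because the untreated libraries of the same mice were added for the estimate of spread. The cells were bone marrow-derived macrophages, which are grown from marrow precursors with the growth factor M-CSF (here for 7 days in medium conditioned by the CMG14-12 cell line), and were then rested overnight without it. They were treated for 2 h with LPS of Salmonella minnesota R595 at 2 ng/mL, with R848 at 20 ng/mL, or with medium alone (NT, no ligand). Mice 1 and 2 were male and mice 3 and 4 female. The other genotypes lacked LynA (LynAKO), LynB (LynBKO) or both (LynKO), the 2 splice isoforms of the Src-family kinase Lyn. Their libraries entered the filter on low counts. They were otherwise used below only to repeat the comparison in other mice and to compare it between genotypes and sexes. Each genotype had 4 mice. One dose of each ligand and one time point were used, so ligand and dose cannot be told apart, and the labels name no mouse strain or age.

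LPS, a component of the outer membrane of Gram-negative bacteria, is sensed at the cell surface and in endosomes by TLR4 with its co-receptors CD14 and MD-2 (Ly96). R848 is an imidazoquinoline that activates the endosomal receptor TLR7 in mouse macrophages. Both receptors signal through the adaptor MyD88 to NF-kB and MAP kinases, which induce inflammatory cytokines. TLR4 also uses a second adaptor, TRIF (Ticam1), which leads through IRF3 to the transcription of interferon-beta. Secreted interferon-beta then acts on its receptor (Ifnar1, Ifnar2) and, through factors that include STAT2 and IRF9, on genes that carry an interferon-stimulated response element.

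Total counts were 16143689 to 22649928 in the LPS libraries and 14974764 to 17412196 in the R848 libraries, and mitochondrial genes took 1.02 to 1.56% and 1.02 to 1.49% of them. Levels are given as CPM, counts per 1000000 after TMM scaling, always in the order of mice 1, 2, 3 and 4. The summed level of 15 macrophage markers was 37580 to 44720 CPM with LPS and 37780 to 41960 CPM with R848, so the sums overlapped. Most of the sum was Lyz2, at 23290 to 28210 CPM and 23910 to 27630 CPM. Of the 15 markers, 5 were called higher with LPS and 4 with R848, 2 of the latter by at least 2-fold. These are 33.3% and 26.7%, beside 13.3% and 13.1% of all tested genes. The marker lists of T and NK cells and of mast cells, basophils and eosinophils summed to at most 1.57 and 2.88 CPM in these libraries, and Cd3e, Cd8a and Fcer1a were at 0 in all 8. Of the lists of other cell types, 5 had members that were called between the ligands, the mast cell list with 1 of 2 tested members higher with LPS. The plasmacytoid dendritic cell list, which holds the interferon-response gene Bst2, summed to 281.5 to 418.4 CPM with LPS and 171.2 to 244 CPM with R848 (2 of 4 tested members higher with LPS, Klk1 and Pacsin1 at 0). The fibroblast and stroma list summed to 9.445 to 24.57 CPM and 5.799 to 11.95 CPM (1 of 4 higher with LPS, Lum at 0), and the erythroid and megakaryocyte list to 22.57 to 35.67 CPM and 34.01 to 41.22 CPM (1 of 3 higher with R848, the globin genes at 0). The endothelial list summed to 50.99 to 74.62 CPM and 55.76 to 87.09 CPM (2 of 4 higher with LPS). The neutrophil and granulocyte progenitor list summed to 33.6 to 73.57 CPM with LPS and 36.55 to 66.42 CPM with R848. The B cell list summed to 14.38 to 17.62 CPM and 11.66 to 16.79 CPM. The conventional dendritic cell list summed to 8.47 to 13.54 CPM and 7.746 to 13.87 CPM. No tested member of these lists was called. The part of such cells in the results was not tested. The LPS library of mouse 1 stood apart from the other LPS libraries. Its squared differences from them were 24.8 to 32.9 times those of sampling noise (chi-square per degree of freedom over genes), against 9.29 to 11.9 among the other three. Among the R848 libraries this ratio was 11 for mice 1 and 2, 17.4 for mice 3 and 4, and 19.9 to 28.7 between the sexes.

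Of 13986 genes tested with edgeR's quasi-likelihood test, 3692 (26.4%) differed between LPS and R848 at a Benjamini-Hochberg adjusted p under 0.05. Similar numbers were higher with each ligand, 1863 genes (13.3%) with LPS and 1829 (13.1%) with R848, and the median log2 fold change (LPS over R848) of all tested genes was -0.03. These 2 shares are the background for every count of list members below. The sizes differed: 555 genes (3.97%) were called and at least 2-fold higher with LPS and 178 (1.27%) at least 2-fold higher with R848, 5.24% in all, and at 8-fold or more the counts were 100 and 7. Without mouse 3, 954 genes were called higher with R848, and without mouse 2, 1188, while at least 1351 were called higher with LPS whichever mouse was left out. In bulk RNA a lower level of a transcript cannot be told apart from fewer cells that express it.

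**Figure D1:**
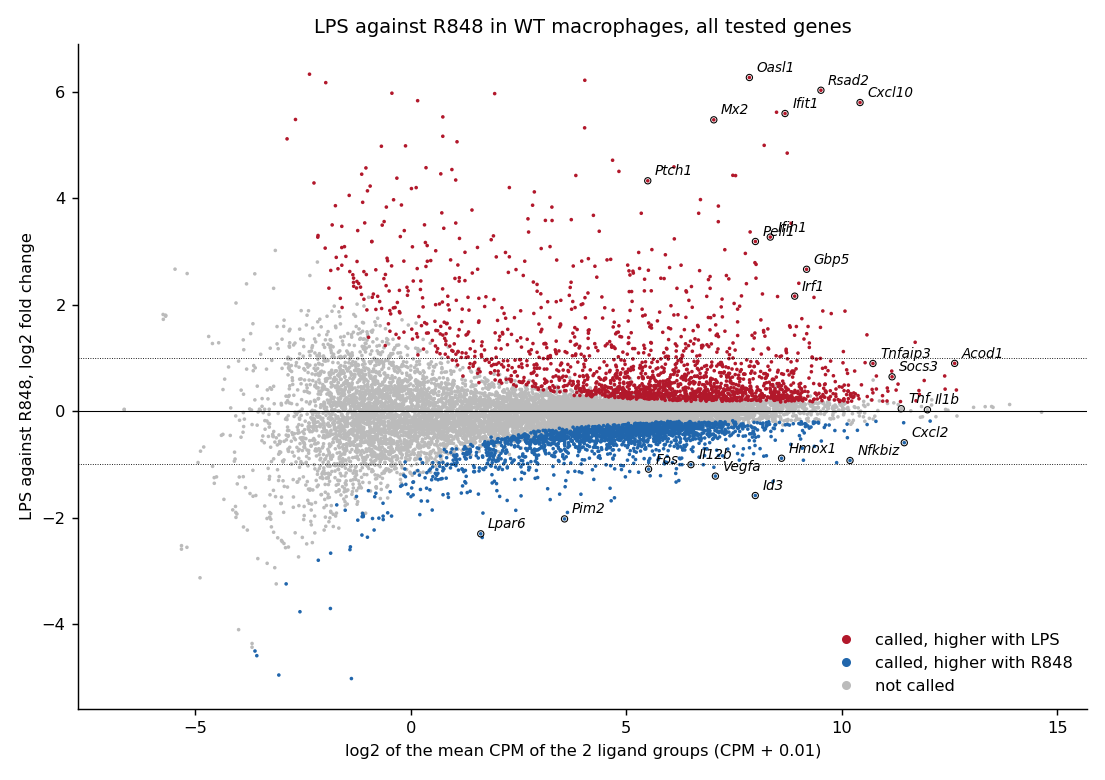
Each point is 1 of the 13986 tested genes, placed by its mean level in the LPS and R848 libraries (log2 CPM, x axis) and by its log2 fold change of LPS against R848 (y axis, dotted lines at 2-fold). Red and blue points passed an adjusted p of 0.05 (edgeR), and the labelled genes are described in the text: Cxcl10, Rsad2 and Oasl1 lie near the top at 5.80, 6.03 and 6.27, Tnf and Il1b near 0, and Id3, Pim2 and Lpar6 at -1.59, -2.02 and -2.31.

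Genes of the type I interferon response held many of the largest differences. The transcript of interferon-beta itself, Ifnb1 (ENSMUSG00000048806, chr4:88522025-88522774, build GRCm38), was rare at 2 h. It was counted 7, 9, 8 and 22 times in the LPS libraries, 1, 1, 0 and 2 times in the R848 libraries and never in the untreated ones. All 4 LPS libraries thus lay above all 4 R848 libraries, with a log2 fold change of 3.40 ± 0.79 (SE; edgeR adjusted p = 0.00549) that rests on 4 R848 reads. It was the one gene of 11 listed type I and III interferons that passed the filter on low counts. That filter ran over the 12 groups of all genotypes. Over the WT groups alone Ifnb1 did not pass it, so its test in WT depends on the knockout libraries.

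The receptor genes differed little and the transcription factors below the receptor differed more. Ifnar1 and Ifnar2, the subunits of the receptor, were higher with LPS by 0.28 and 0.38 on the log2 scale. Stat2, which carries the signal to the nucleus, was at 462, 362, 338 and 381 CPM with LPS and 44.7, 52.2, 43.2 and 56.6 CPM with R848, 7.82-fold higher with LPS (log2 fold change 2.97 ± 0.11, edgeR adjusted p = 1.02e-12). With R848 Stat2 was also lower than in untreated cells, which had 86.4, 84, 53.7 and 70.5 CPM. Irf7, the factor that amplifies interferon transcription and overlaps Phrf1 on the opposite strand, was at 350.1, 251, 205 and 287 CPM with LPS and 46.7, 57.7, 30.5 and 53.8 CPM with R848 (log2 fold change 2.55 ± 0.13, edgeR adjusted p = 8.39e-11). Irf1, a factor that NF-kB can induce, rose with both ligands over untreated cells, by 3.75 with LPS and 1.58 with R848 on the log2 scale, and was 4.48-fold higher with LPS in the direct comparison (edgeR adjusted p = 8.58e-13). Irf8, a factor of macrophage and dendritic cell development, fell with both ligands (log2 fold changes against untreated cells -0.63 with LPS and -1.55 with R848) and was higher with LPS (log2 fold change 0.92 ± 0.09). In all, 13 of the 17 receptor, STAT and IRF genes tested were called higher with LPS and 0 with R848.

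**Figure D2:**
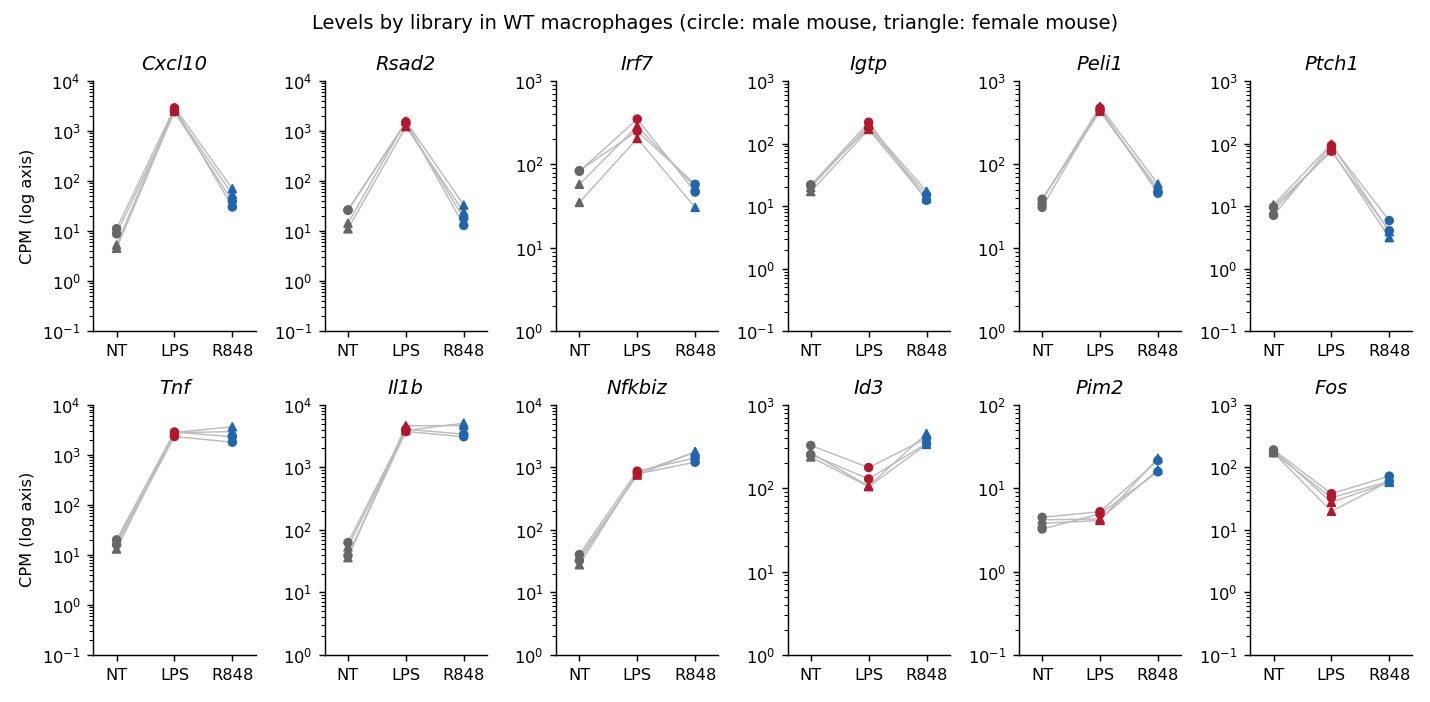
Levels of 12 genes in CPM (log axis) in the untreated (NT), LPS and R848 libraries of the 4 WT mice, with lines joining the libraries of a mouse, circles for males and triangles for females. Cxcl10, Rsad2, Irf7, Igtp, Peli1 and Ptch1 are higher with LPS in every mouse, Tnf and Il1b overlap between the ligands, Nfkbiz, Id3 and Pim2 are higher with R848 in every mouse, and Fos is below its untreated level with both ligands and lower with LPS.

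Effector genes of the interferon response showed some of the largest of these differences. Rsad2 (viperin, ENSMUSG00000020641, chr12:26442746-26456452), which makes an antiviral nucleotide analogue, was at 1526, 1442, 1225 and 1578 CPM with LPS and 13, 18, 24.1 and 33.1 CPM with R848. Untreated cells had 26.6, 26.1, 11.1 and 14.4 CPM, so the R848 libraries overlapped the untreated ones while the LPS libraries were 65.6-fold higher than R848 (log2 fold change 6.03 ± 0.27, edgeR adjusted p = 1.30e-11). Its neighbour on chromosome 12, Cmpk2, a mitochondrial nucleotide kinase, was at 846, 690.1, 563 and 714 CPM with LPS and 10.4, 13.7, 14.9 and 17.5 CPM with R848 (log2 fold change 5.62 ± 0.20). Oasl1, a relative of the antiviral 2'-5' oligoadenylate synthetases, was at 590.2, 408, 356 and 477 CPM with LPS and 4.66, 5.80, 6.82 and 6.33 CPM with R848 and had the largest log2 fold change of the called genes with a mean of at least 5 CPM in the higher group, 6.27 ± 0.24 (edgeR adjusted p = 2.19e-12). The dynamin-like GTPases Mx1 and Mx2, which block incoming viruses, differed by 5.00 ± 0.19 and 5.48 ± 0.17. Both Mx genes rose with R848 over untreated cells as well, by 0.98 and 0.61 on the log2 scale.

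All 6 tested genes of the IFIT family, RNA-binding proteins that recognise viral transcripts, were higher with LPS, with log2 fold changes of 2.33 to 5.60. Ifit1 was at 789, 811, 811 and 810.1 CPM with LPS and 7.93, 14.4, 16 and 30.7 CPM with R848. In untreated cells Ifit1 was at 23.3, 19, 11.2 and 13.8 CPM. The 4 LPS values lay close together, and the R848 values spanned the untreated ones (log2 fold change 5.60 ± 0.28, edgeR adjusted p = 4.63e-11). Ifit3 and Ifit3b are near-identical copies on chromosome 19 and reads may be split between them, so 4.43 and 4.72 are less certain. Of 57 antiviral effector genes tested, 54 were called higher with LPS and 1 with R848, at a median log2 fold change of 1.84. The exception was Tent5c, a poly(A) polymerase: it was at 1.97, 2.02, 1.68 and 2.57 CPM with LPS and 5.81, 5.50, 3.41 and 2.92 CPM with R848. In untreated cells Tent5c was at 17.2, 16.2, 16.4 and 17.9 CPM, so it fell with both ligands and was lowest with LPS (log2 fold change -1.10 ± 0.22, edgeR adjusted p = 0.00104).

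The ubiquitin-like protein ISG15 and the enzymes that attach or remove it were higher with LPS in 6 of 6 genes. Isg15 was at 434, 303, 289.6 and 333 CPM with LPS and 12.7, 14.8, 13.2 and 22 CPM with R848 (log2 fold change 4.44 ± 0.19). Usp18, which removes ISG15 and damps receptor signalling, was at 238, 187, 168 and 202 CPM with LPS and 10.7, 14, 10.7 and 15.2 CPM with R848 (log2 fold change 3.98 ± 0.16). Trim25, a ubiquitin ligase that activates RIG-I, behaved differently from Isg15 against untreated cells: it was at 466, 469, 450.1 and 493 CPM with LPS and 107, 124, 94.3 and 85.3 CPM with R848. In untreated cells Trim25 was at 299, 354, 328 and 296 CPM, so it rose with LPS (0.56 on the log2 scale) and fell with R848 (-1.64), with a direct log2 fold change of 2.20 ± 0.09.

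Cytosolic sensors of foreign nucleic acid were higher with LPS in 15 of 17 tested genes. Ifih1 (MDA5, a sensor of long double-stranded RNA; ENSMUSG00000026896, chr2:62595798-62646255) was at 575, 575, 619 and 583 CPM with LPS and 62.1, 60.6, 60.3 and 60.4 CPM with R848, and had the smallest p of all tested genes (log2 fold change 3.27 ± 0.08, edgeR adjusted p = 2.28e-14). The 4 R848 values of Ifih1 lay between 60.3 and 62.1 CPM, above all untreated values. Ddx58 (RIG-I) was at 279.7, 247, 216 and 228 CPM with LPS and 54.4, 59.4, 49.6 and 61.1 CPM with R848 (log2 fold change 2.11 ± 0.09), and with R848 it stayed in the range of untreated cells. Zbp1, a sensor of Z-form nucleic acid, differed by 2.94 ± 0.16, and the DNA-binding p200 family members Ifi207, Ifi208 and Ifi213 by 1.59, 3.87 and 3.84.

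Guanylate-binding proteins and immunity-related GTPases, which attack vacuoles that hold pathogens, were higher with LPS in 14 of 15 tested genes, each of the 14 by at least 2-fold. Against untreated cells R848 moved some members up and others down. Gbp5 was at 1024, 946, 977 and 1069 CPM with LPS and 122, 134, 201 and 181 CPM with R848. In untreated cells Gbp5 was at 2.93, 3.04, 1.29 and 2.26 CPM, so it rose with both ligands, by 8.73 and 6.06 on the log2 scale. Igtp (Irgm3) was at 219, 180.3, 168 and 195 CPM with LPS and 12.4, 15.1, 13.1 and 17.3 CPM with R848. In untreated cells Igtp was at 21.3, 22, 17.1 and 20.0 CPM, so it rose with LPS (3.25 on the log2 scale) and fell with R848 (-0.47), and the direct log2 fold change was 3.72 ± 0.10. Irgm1, Irgm2, Tgtp2 and Iigp1 were at log2 fold changes of 3.37, 3.86, 4.51 and 4.12 between the ligands. Igtp and Irgm2 overlap on the same strand of chromosome 11, so reads from the shared part cannot be assigned to one of them.

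Taking the IFIT, antiviral effector, ISG15, sensor and GTPase lists as one, 95 of 101 tested genes were higher with LPS and 1 lower, at a median log2 fold change of 2.16 against -0.03 for all tested genes. The LPS and R848 groups did not overlap in 92 of the 101, where 22% of all tested genes did not overlap. Against the untreated libraries, which both of the next comparisons share, 91 of the 101 were higher and 4 lower with LPS (median log2 fold change 2.60), and 32 were higher and 26 lower with R848 (median -0.03). Across all tested genes, 32.8% were higher and 31.3% lower with LPS than untreated, and 31.4% and 28.5% with R848.

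**Figure D3:**
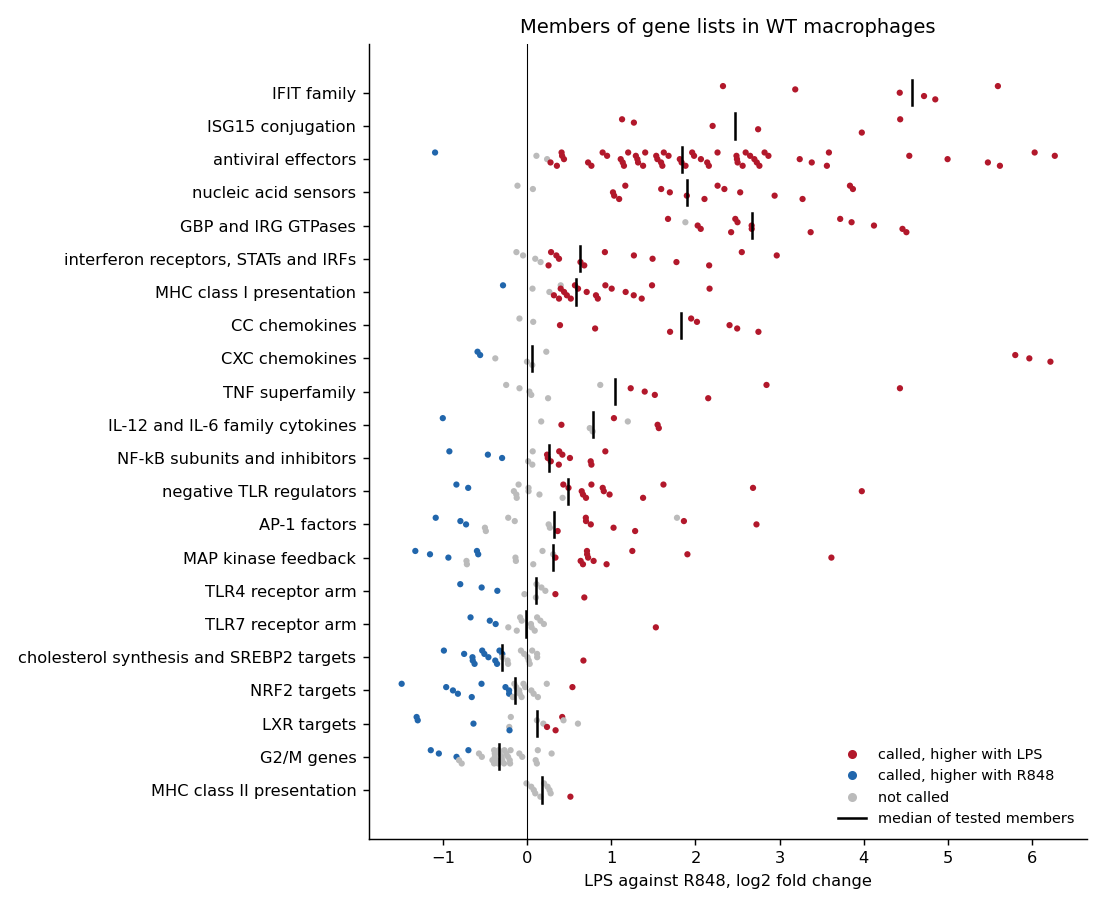
Each point is a tested member of a gene list, placed by its log2 fold change of LPS against R848 in WT macrophages and coloured by its call (edgeR, adjusted p 0.05); black bars are list medians. The IFIT, ISG15, effector, sensor and GTPase lists lie to the right of 0 apart from Tent5c and an uncalled gene of the sensor list. The cholesterol synthesis list lies mostly to the left of 0, and the NF-kB, AP-1 and MAP kinase feedback lists lie on both sides.

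The promoters of these genes were read from RefSeq (build GRCm38.p6) to show the element that interferon signalling uses. The motif searched was GAAANNGAA, the core of the interferon-stimulated response element, on either strand in the 250 bases before to 50 bases after each gene start. The 250 bases before the start are printed for the chemokine gene Cxcl10, the effectors Ifit1 and Rsad2, the GTPase gene Igtp and the sensor gene Ifih1. The shares of promoters with the motif are given further below, and many promoters of the lists lack it. These 5 windows are examples that hold the motif and do not stand for their lists. Each is written 5′ to 3′ on the strand of the gene, with the motif in capitals (as its reverse complement where it lies on the other strand).
Cxcl10: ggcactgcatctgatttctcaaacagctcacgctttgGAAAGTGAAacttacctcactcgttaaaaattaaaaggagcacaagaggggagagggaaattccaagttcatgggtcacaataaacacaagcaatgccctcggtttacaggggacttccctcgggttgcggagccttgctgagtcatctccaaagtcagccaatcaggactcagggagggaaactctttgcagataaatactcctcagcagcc
Ifit1: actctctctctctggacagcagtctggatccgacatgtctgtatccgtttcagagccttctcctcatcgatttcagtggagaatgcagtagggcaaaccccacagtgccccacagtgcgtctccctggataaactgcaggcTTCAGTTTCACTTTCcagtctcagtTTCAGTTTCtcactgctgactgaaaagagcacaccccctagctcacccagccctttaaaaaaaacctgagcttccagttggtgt
Rsad2: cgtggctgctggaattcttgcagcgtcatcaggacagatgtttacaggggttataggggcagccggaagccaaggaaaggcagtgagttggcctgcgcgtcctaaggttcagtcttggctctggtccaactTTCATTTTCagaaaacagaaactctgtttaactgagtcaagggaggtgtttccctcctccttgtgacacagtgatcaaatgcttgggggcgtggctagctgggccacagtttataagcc
Igtp: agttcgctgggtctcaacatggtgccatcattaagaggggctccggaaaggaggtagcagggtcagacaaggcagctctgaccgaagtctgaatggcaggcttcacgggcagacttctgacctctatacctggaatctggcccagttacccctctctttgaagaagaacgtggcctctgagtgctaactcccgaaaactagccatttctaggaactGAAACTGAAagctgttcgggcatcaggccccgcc
Ifih1: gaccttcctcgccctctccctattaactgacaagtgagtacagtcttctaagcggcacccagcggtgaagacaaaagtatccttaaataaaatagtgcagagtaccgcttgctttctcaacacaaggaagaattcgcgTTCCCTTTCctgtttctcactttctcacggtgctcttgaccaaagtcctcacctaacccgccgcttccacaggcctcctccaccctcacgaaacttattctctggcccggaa
These stretches are chr5:92348890-92349139 (minus strand), chr19:34640639-34640888 (plus), chr12:26456453-26456702 (minus), chr11:58199306-58199555 (plus) and chr2:62646256-62646505 (minus). Counted from the gene start, the match begins at -213 in Cxcl10, -119 in Rsad2, -34 in Igtp and -112 in Ifih1. Ifit1 has 3 matches, at -109, -103 and -84, of which the first 2 overlap. Matches are letters in a window, not bound sites.

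Over all tested genes with a promoter in the RefSeq table (12755 promoters of 10020 genes), 7.44% held the motif. The share was 12.71% of promoters of genes called higher with LPS, 21.94% of those at least 2-fold higher and 32.04% of those at least 4-fold higher. It was 6.667% among genes not called, 5.921% among genes higher with R848 and 5.96% among those at least 2-fold higher with R848. By list, 9 of 10 promoters of the GTPases, 9 of 14 of the sensors, 6 of 9 of the IFIT genes, 2 of 5 of the ISG15 genes, 20 of 57 of the antiviral effectors and 2 of 19 of the receptors, STATs and IRFs held it. The form with 1 more A after the last base was found in 3.348% of all promoters and 7.054% of those of genes higher with LPS. No match to the response element lay in the windows of Oasl1, Cmpk2, Ifit2 and Irf7. The rise with the size of the difference was not particular to this motif: the AP-1 motif TGANTCA was in 5.355% of all promoters, 12.65% of those at least 2-fold higher with LPS and 18.93% of those at least 4-fold higher. Another motif searched, GAS (TTCNNNGAA), was in 6.884%, 11.46% and 16.5% of the same sets. No test was made of these shares, because the gene sets were made from the expression values.

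**Figure D4:**
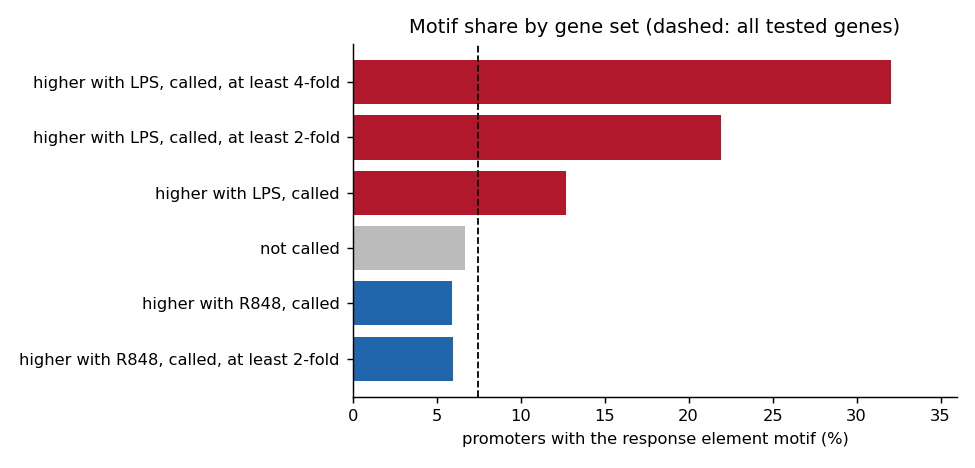
Bars give the percentage of RefSeq promoters (300 bases) that hold the response element motif on either strand in 6 sets of tested genes, and the dashed line the percentage in all tested genes, 7.44%. The share grows with the size of the difference among genes higher with LPS, to 32.04% at 4-fold or more, and stays below the dashed line among genes higher with R848.

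Of 9 tested CXC chemokines, 3 were higher with LPS and 2 with R848. The ligands of CXCR3, which draw T and NK cells, were among the largest differences of all. Cxcl10 (ENSMUSG00000034855, chr5:92346638-92348889) was at 2902, 2429, 2511 and 2953 CPM with LPS and 30.3, 39.6, 54.3 and 70.5 CPM with R848. In untreated cells Cxcl10 was at 11.2, 8.85, 4.53 and 5.30 CPM. Every R848 library was above every untreated library, and every LPS library was far above every R848 library (log2 fold change 5.80 ± 0.25, edgeR adjusted p = 8.04e-12). Cxcl11 was at 30.1, 26.6, 32 and 41 CPM with LPS and 0.303, 0.302, 0.696 and 0.427 CPM with R848 (log2 fold change 6.22 ± 0.21), and Cxcl9, with 7 R848 reads in all, at 8.39, 7.18, 6.51 and 8.26 CPM with LPS and 0, 0.181, 0.209 and 0.0711 CPM with R848 (log2 fold change 5.97 ± 0.46).

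The neutrophil chemokines Cxcl1 and Cxcl2 of the same family were higher with R848, while Cxcl3 and Cxcl5, which act on the same receptor, were not called (0.06 and -0.38 on the log2 scale). Cxcl2 (ENSMUSG00000058427, chr5:90903871-90905938) was at 2040.4, 2134, 2649 and 2007 CPM with LPS and 2720.4, 2536, 4077 and 4214 CPM with R848. Within each of the 4 mice the R848 library was higher, although the groups overlapped, because LPS in mouse 3 exceeded R848 in mouse 2 (log2 fold change -0.59 ± 0.11, edgeR adjusted p = 4.53e-04). Cxcl1 was at 479, 504, 892 and 502 CPM with LPS and 686, 626, 1262 and 946 CPM with R848 (log2 fold change -0.56 ± 0.10, edgeR adjusted p = 3.80e-04), and this call was lost without the mouse block (adjusted p = 0.0615). To show what the window of such a gene holds, the 250 bases before the start of Cxcl2 (chr5:90903649-90903898, plus strand) are printed with their 2 overlapping kappa B matches, the motif of NF-kB, in capitals, beside those of Nfkbia (chr12:55492648-55492897, minus strand), the gene of the NF-kB inhibitor.
Cxcl2: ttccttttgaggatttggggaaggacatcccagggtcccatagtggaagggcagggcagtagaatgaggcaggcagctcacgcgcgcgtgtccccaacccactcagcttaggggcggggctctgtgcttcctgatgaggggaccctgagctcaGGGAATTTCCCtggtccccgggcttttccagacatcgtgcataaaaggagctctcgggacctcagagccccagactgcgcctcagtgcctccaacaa
Nfkbia: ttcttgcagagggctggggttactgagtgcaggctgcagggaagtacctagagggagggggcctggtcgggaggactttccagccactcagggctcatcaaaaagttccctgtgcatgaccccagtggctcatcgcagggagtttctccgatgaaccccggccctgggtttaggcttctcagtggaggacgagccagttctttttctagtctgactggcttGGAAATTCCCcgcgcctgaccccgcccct
Only 1 kind of motif is marked in each printed window. That of Nfkbia, which was higher with LPS, also holds 1 match to the response element. That of Cxcl10 also holds 2 kappa B matches and 1 AP-1 match, that of Rsad2 1 AP-1 match and that of Igtp 1 GAS match. The kappa B motif was found in 5.276% of all promoters, 7.377% of those of genes higher with LPS and 5.373% of those higher with R848. It was in 8.103% of promoters of genes at least 2-fold higher with LPS and 12.14% of those at least 4-fold higher.

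Among CC chemokines, 8 of 10 tested genes were higher with LPS and 0 with R848. Ccl5 (RANTES), which attracts T cells and monocytes, was at 1046, 723, 841 and 838 CPM with LPS and 124, 113, 176 and 243 CPM with R848. In untreated cells Ccl5 was at 5.95, 3.86, 1.81 and 2.23 CPM, so it rose with both ligands and was 5.30-fold higher with LPS (log2 fold change 2.41 ± 0.22). The monocyte chemokine Ccl2 was at 71.6, 82.2, 69.3 and 96.3 CPM with LPS and 27.4, 35.1, 19.8 and 21.1 CPM with R848 (log2 fold change 1.70 ± 0.31), and the T-cell chemokine Ccl22 at 23.2, 23.3, 25.1 and 30.5 CPM with LPS and 5.93, 6.28, 6.06 and 6.83 CPM with R848 (2.02 ± 0.14). Ccl3 did not separate the ligands: it was at 1828, 1641, 1621 and 1625 CPM with LPS and 1488, 1277, 1988 and 2468 CPM with R848, lower with R848 in the males and higher in the females (log2 fold change -0.09 ± 0.17, edgeR adjusted p = 0.742). Ccl4, its neighbour on chromosome 11, was at 1027, 935, 857 and 971 CPM with LPS and 389, 364, 575 and 895 CPM with R848 and was called higher with LPS (log2 fold change 0.81 ± 0.24, edgeR adjusted p = 0.0174), a call that was lost without mouse 2 and with DESeq2 (adjusted p up to 0.216).

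Several of the best known products of NF-kB did not separate the ligands beyond the spread of the mice. Tnf was at 2845, 2316, 2765 and 2794 CPM with LPS and 2288, 1784, 2903 and 3622 CPM with R848, with 20.0, 15.9, 13 and 18.1 CPM in untreated cells. The 2 groups overlapped, and the log2 fold change of 0.05 ± 0.12 was smaller than its error (edgeR adjusted p = 0.832). Il1b was at 4067, 3728, 4604 and 3873 CPM with LPS and 3383, 3076, 4661 and 5075 CPM with R848, again overlapping (log2 fold change 0.03 ± 0.14, edgeR adjusted p = 0.917). Ptgs2 (COX-2, prostaglandin synthesis) overlapped too, at 1675, 1825, 2049 and 1433 CPM with LPS and 987, 1149, 2186 and 1830.2 CPM with R848 (log2 fold change 0.21 ± 0.20, edgeR adjusted p = 0.49). In these 3 genes the R848 libraries of the 2 females were above those of the 2 males, while the LPS libraries were not ordered by sex.

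Other cytokines differed in both directions. Il6, Il27, Il10, Il1a and Il15 were higher with LPS, Il6 at 64.9, 58.9, 80.4 and 78.6 CPM with LPS and 15.7, 15.2, 34.9 and 35.8 CPM with R848 (log2 fold change 1.56 ± 0.14, edgeR adjusted p = 9.90e-08). Il10, an anti-inflammatory cytokine, was at 69.8, 108, 128 and 107 CPM with LPS and 35.3, 61.9, 60.8 and 49.4 CPM with R848 (log2 fold change 0.99 ± 0.10). Il15, which supports NK and memory T cells, was at 140.5, 135, 147 and 145 CPM with LPS and 26.6, 32.7, 34.3 and 40.7 CPM with R848 (log2 fold change 2.08 ± 0.10), and the untreated libraries had 21.3, 18.8, 17.4 and 18.1 CPM. Il1rn, the antagonist of the IL-1 receptor, was higher by 1.59 ± 0.13, whereas Il1b was not called. Il19, of the IL-10 family, had no count in untreated cells and was at 7.11, 8.79, 12.6 and 8.54 CPM with LPS and 0.363, 0.423, 0.557 and 0.640 CPM with R848 (log2 fold change 4.21 ± 0.27).

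Il12b, the p40 subunit of IL-12 and IL-23, was the one tested gene of the IL-12 and IL-6 family that was higher with R848. It was counted once over the 4 untreated libraries and was at 73.9, 58.8, 52.8 and 50.1 CPM with LPS and 87.3, 86.6, 151 and 164 CPM with R848. The groups did not overlap, but the difference was small in the males and larger in the females (log2 fold change -1.01 ± 0.17, edgeR adjusted p = 2.63e-04). Its partners Il12a (p35) and Il23a (p19) were at 0 in untreated cells and at or below 3.10 CPM with either ligand, and were not called (log2 fold changes 1.20 ± 0.54 and 0.74 ± 0.36, edgeR adjusted p = 0.122 and 0.148). Csf2 and Csf3 were not called either (adjusted p = 0.364 and adjusted p = 0.869, edgeR). Of the TNF superfamily, 6 of 12 tested genes were higher with LPS and 0 with R848, among them Tnfsf10 (TRAIL), at 29, 27.8, 19.7 and 32.2 CPM with LPS and 0.847, 0.664, 1.88 and 1.71 CPM with R848 (log2 fold change 4.43 ± 0.22), and Tnfsf9 (4-1BB ligand), at a log2 fold change of 1.52 ± 0.07.

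Genes that regulate NF-kB differed in modest steps, 10 of 16 tested genes higher with LPS and 3 with R848, none by 2-fold. Nfkbia (IkB-alpha) was at 2199.7, 1871, 2008 and 2092 CPM with LPS and 1457, 1433, 1515 and 1716 CPM with R848 (log2 fold change 0.42 ± 0.07, edgeR adjusted p = 1.45e-04). Bcl3, a nuclear IkB protein, was at 512, 390.4, 404 and 432 CPM with LPS and 217, 244, 221 and 224 CPM with R848 (log2 fold change 0.93 ± 0.09). Nfkbiz (IkB-zeta), a nuclear IkB protein that Il12b and Il6 need for their transcription, went the other way, at 867, 785, 811 and 748 CPM with LPS and 1409, 1206, 1743 and 1782 CPM with R848. All 4 R848 libraries exceeded all 4 LPS libraries for Nfkbiz (log2 fold change -0.93 ± 0.11, edgeR adjusted p = 4.21e-06).

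Of 23 tested negative regulators of TLR signalling, 13 (56.5%) were higher with LPS and 2 (8.70%) with R848, beside 13.3% and 13.1% of all tested genes. Socs1, which blocks interferon receptor signalling, was at 75.3, 56, 58.9 and 84 CPM with LPS and 9.02, 8.28, 11.6 and 14.1 CPM with R848, 6.43-fold higher with LPS (log2 fold change 2.68 ± 0.14, edgeR adjusted p = 6.58e-11). Socs3, which blocks IL-6 family receptors, was at 3107, 2669.9, 2725 and 2750.0 CPM with LPS and 1638, 1810.0, 1815 and 1883 CPM with R848 (log2 fold change 0.65 ± 0.10). Tnfaip3 (A20), a ubiquitin-editing enzyme, was at 2129, 2067, 2345 and 2243 CPM with LPS and 1043, 1135, 1429.7 and 1131 CPM with R848 (log2 fold change 0.90 ± 0.07). Trib1, a pseudokinase, was higher with R848, at 95.3, 89.9, 85.1 and 71.7 CPM with LPS and 129.8, 138, 143 and 144 CPM with R848 (log2 fold change -0.70 ± 0.08). Peli1, a ubiquitin ligase that takes part in TRIF and MyD88 signalling, was at 474, 438, 494 and 435 CPM with LPS and 45.1, 47.4, 58.3 and 51.6 CPM with R848, so that R848 moved it by 0.49 and LPS by 3.68 on the log2 scale against untreated cells, and the direct log2 fold change was 3.19 ± 0.09 (edgeR adjusted p = 3.56e-14).

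The receptors and adaptors themselves differed less. Tlr4 fell with both ligands, more with LPS: it was at 44.2, 66.9, 61.9 and 53 CPM with LPS and 82.9, 98.5, 79.6 and 67.8 CPM with R848. In untreated cells Tlr4 was at 104, 107, 109 and 97.4 CPM (log2 fold change LPS against R848 -0.54 ± 0.09, edgeR adjusted p = 2.76e-04). Ly96 (MD-2) was higher with LPS by 0.68 ± 0.12 on the log2 scale. Ticam2 (TRAM, which bridges TLR4 to TRIF) was higher with R848, at 18.3, 22.2, 16 and 16 CPM with LPS and 29.2, 27.7, 36.4 and 32.2 CPM with R848 (log2 fold change -0.80 ± 0.12), but overlaps Tmed7 on the same strand, which was at a higher level. Cd14 was at 5750.5, 4380.1, 4367 and 4275 CPM with LPS and 3849, 3721, 3917 and 4562 CPM with R848 and was not called (log2 fold change 0.21 ± 0.09, edgeR adjusted p = 0.0783), although it passed with no filter on low counts (adjusted p = 0.000988) and without mouse 4 (0.00994). Ticam1 (TRIF) did not separate the ligands (log2 fold change -0.03 ± 0.09, edgeR adjusted p = 0.829).

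For the endosomal receptors, Tlr7 was at 174, 193, 207 and 201 CPM with LPS and 176, 155, 184 and 162 CPM with R848 and just missed the threshold (log2 fold change 0.20 ± 0.07, edgeR adjusted p = 0.0582), which it passed with RLE scaling, with DESeq2, with the filter over WT groups and without mouse 1. Tlr3, the sensor of double-stranded RNA that also uses TRIF, was at 23.2, 27.1, 27 and 27.4 CPM with LPS and 10.3, 7.85, 9.68 and 8.46 CPM with R848. In untreated cells Tlr3 was at 13.6, 14.5, 14.3 and 14.2 CPM, so it rose with LPS and fell with R848 (log2 fold change 1.53 ± 0.11, edgeR adjusted p = 1.41e-08). Tlr8 and Tlr13 were higher with R848 (log2 fold changes -0.68 ± 0.08 and -0.45 ± 0.11), Tlr13 not without mouse 1 (adjusted p = 0.0582). Tlr9 was called at adjusted p = 0.0345 (edgeR), a call lost without the mouse block (adjusted p = 0.147) and without mouse 1 (0.192), 2 (0.151) or 3 (0.11). Myd88, the shared adaptor, was higher with LPS, at 391, 337, 336 and 330.3 CPM with LPS and 176, 204, 217 and 232 CPM with R848 (log2 fold change 0.75 ± 0.09); it overlaps Acaa1a on the other strand.

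Lyn, the kinase that the study deleted, rose over untreated cells by 0.96 with LPS and 1.10 with R848 on the log2 scale and did not separate the ligands (346, 338, 336 and 309 CPM with LPS and 349, 336, 386 and 391 CPM with R848; log2 fold change -0.14 ± 0.07, edgeR adjusted p = 0.19). Of 24 tested genes of Src-family kinases, activating and inhibitory receptors and their signalling partners, 9 (37.5%) were higher with LPS and 3 (12.5%) with R848. The latter share is near the 13.1% of all tested genes, and none of these 3 genes was a Src-family kinase or a receptor. Src was at 306, 247, 251 and 207 CPM with LPS and 111, 97.7, 109.9 and 95.7 CPM with R848. In untreated cells Src was at 5.46, 5.69, 6.86 and 6.15 CPM (log2 fold change LPS against R848 1.28 ± 0.09). Fcgr1, the high-affinity IgG receptor, rose with LPS and fell with R848, at 322, 322, 244 and 281 CPM with LPS and 168, 195, 117 and 127 CPM with R848 against 251, 266, 204 and 193 CPM untreated (log2 fold change 0.97 ± 0.08). Inpp5d (SHIP1), an inhibitory lipid phosphatase, was lower with LPS, at 86.6, 86.7, 74.4 and 105 CPM with LPS and 182, 183, 114 and 107 CPM with R848 (log2 fold change -0.71 ± 0.14). The ligands were nearly equal in mouse 4. Its summed counts were 33412 untreated, 5441 with LPS and 9154 with R848, so Inpp5d was below its untreated level with both ligands.

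Targets and brakes of MAP kinase signalling went both ways, 11 of 23 tested genes higher with LPS and 5 with R848. Dusp2, a nuclear MAP kinase phosphatase, was at 168, 141, 149 and 201 CPM with LPS and 61.7, 56.3, 70.0 and 90.8 CPM with R848 (log2 fold change 1.25 ± 0.10). Dusp4, another, was at 49.5, 36.8, 38.6 and 37 CPM with LPS and 106, 85.5, 116 and 101 CPM with R848, higher with R848 in each mouse and without overlap (log2 fold change -1.33 ± 0.14, edgeR adjusted p = 7.46e-07). Dusp1 was not called (log2 fold change 0.18 ± 0.08, edgeR adjusted p = 0.0939). Sphk1, the kinase that makes sphingosine-1-phosphate, was at 14.4, 10.4, 12.3 and 11.7 CPM with LPS and 0.605, 1.27, 1.46 and 0.640 CPM with R848 (log2 fold change 3.62 ± 0.28), and rose with both ligands from 0.586, 0.234, 0.405 and 0.141 CPM. Plk3, a stress kinase, was higher with R848 (-1.16 ± 0.17).

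AP-1 genes went both ways. Fos was at 32.7, 37.8, 27.6 and 19.8 CPM with LPS and 59.6, 72.2, 57.4 and 59.5 CPM with R848. In untreated cells Fos was at 171, 189.5, 187 and 171 CPM, so at 2 h it was below the untreated level with both ligands and lowest with LPS (log2 fold change -1.09 ± 0.11, edgeR adjusted p = 6.40e-07). Jun was higher with R848, at 85.4, 60.9, 55.4 and 47.8 CPM with LPS and 111, 101, 102 and 92.3 CPM with R848 (log2 fold change -0.73 ± 0.09), and with LPS it was not called against untreated cells (-0.01). Batf2 and Mafk were higher with LPS, Batf2 at 42, 28.3, 29.9 and 34.3 CPM with LPS and 5.20, 4.77, 4.46 and 5.76 CPM with R848 (log2 fold change 2.73 ± 0.12) and Mafk at 107, 74.5, 76.3 and 86.2 CPM with LPS and 19.1, 24.9, 21.1 and 28.9 CPM with R848 (log2 fold change 1.86 ± 0.13). Of the 18 AP-1 genes tested, 8 were higher with LPS, among them the classical members Junb (0.76 ± 0.10) and Fosl2 (0.70 ± 0.09), and 3 with R848, Fos, Jun and the small Maf factor Mafg (-0.80 ± 0.08). Egr1, an early growth response factor, passed narrowly (adjusted p = 0.0485, edgeR), and not without the mouse block (adjusted p = 0.0766) or without mouse 2 (0.135) or 3 (0.122). Of the factors that degrade cytokine mRNA, Zfp36 (tristetraprolin) was higher with LPS by 0.71 ± 0.10, and Zfp36l2 was lower, at 24.8, 22.6, 17.7 and 19.3 CPM with LPS and 59.1, 52.5, 36.4 and 38.3 CPM with R848 against 487, 483, 493 and 472 CPM untreated (log2 fold change -1.13 ± 0.11).

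Genes higher with R848 had smaller differences and fell into several patterns against untreated cells. One pattern was a rise with R848. Pim2, a survival kinase, was at 5.22, 4.90, 4.27 and 4.10 CPM with LPS and 21.4, 15.7, 16.5 and 22.8 CPM with R848. In untreated cells Pim2 was at 4.46, 3.24, 4.17 and 3.78 CPM: the R848 libraries stood above all others and the LPS libraries were not called against untreated cells (log2 fold change LPS against R848 -2.02 ± 0.15, edgeR adjusted p = 1.04e-08). Kcnj2, a potassium channel, was at 12.4, 15.9, 12.9 and 10.2 CPM with LPS and 35.5, 28.8, 50.6 and 45.7 CPM with R848 (log2 fold change -1.63 ± 0.16), and with LPS it fell below untreated cells (-0.49). Cd300e, an activating receptor of monocytes, rose with both ligands and more with R848, at 13.8, 13.4, 10.4 and 10.3 CPM with LPS and 31.1, 39.2, 42.7 and 40.0 CPM with R848 (log2 fold change -1.68 ± 0.14). Rasgrf1, a Ras activator, did so too (-1.60 ± 0.30). Marco, a scavenger receptor, was at 7.79, 6.32, 6.65 and 8.96 CPM with LPS and 15.7, 11.5, 22.3 and 44.2 CPM with R848, with the 2 females highest (log2 fold change -1.56 ± 0.36, edgeR adjusted p = 0.0038), and was not called by DESeq2 (adjusted p = 0.116).

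A second pattern was a fall with LPS that R848 lacked. Id3, an inhibitor of basic helix-loop-helix factors, was at 177, 129, 104 and 106 CPM with LPS and 395, 343, 334 and 451 CPM with R848. In untreated cells Id3 was at 325, 254, 236 and 264 CPM, so it fell with LPS (-1.08 on the log2 scale) and rose with R848 (0.51) (LPS against R848 -1.59 ± 0.11, edgeR adjusted p = 2.77e-09). Mylip, a ubiquitin ligase that degrades the LDL receptor, was at 46.8, 47.9, 41.2 and 36.1 CPM with LPS and 115, 120.0, 97.3 and 91.7 CPM with R848. In untreated cells Mylip was at 92.8, 115, 107 and 87 CPM (log2 fold change LPS against R848 -1.30 ± 0.08). Ahrr, the repressor of the aryl hydrocarbon receptor, differed by -1.68 ± 0.20 and had no called change with R848.

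The third pattern was a fall with both ligands that went further with LPS. Lpar6, a receptor of lysophosphatidic acid, was at 1.36, 1.52, 0.770 and 0.347 CPM with LPS and 6.17, 4.23, 4.53 and 5.69 CPM with R848. In untreated cells Lpar6 was at 151, 143, 156 and 138 CPM (log2 fold change LPS against R848 -2.31 ± 0.24, edgeR adjusted p = 1.08e-06). It overlaps Rb1 on the opposite strand, and no strand setting is known for the counting, so reads of the pair cannot be told apart. Vegfa, the endothelial growth factor, was at 101, 82.5, 77.5 and 63.2 CPM with LPS and 201, 173, 183 and 193 CPM with R848. In untreated cells Vegfa was at 255, 259.9, 248 and 251 CPM (log2 fold change -1.22 ± 0.09). Plekhg3 was at 6.20, 5.41, 4.48 and 6.11 CPM with LPS and 19.6, 17.5, 15.5 and 12.9 CPM with R848. In untreated cells Plekhg3 was at 57, 57.2, 60.6 and 54.1 CPM (-1.56 ± 0.13). The chemokine receptors Cxcr4, Ccr2 and Cx3cr1 were lower with LPS, at -0.70, -0.95 and -0.59 on the log2 scale against R848. Ccr2, the receptor of Ccl2, was at 30.5, 43.8, 44.5 and 44.2 CPM with LPS and 83.4, 89, 80.1 and 63.2 CPM with R848, and Cxcr4 had fallen from 471, 426, 397 and 441 CPM to 5.75, 4.65, 5.18 and 3.75 CPM with LPS and 9.20, 7.67, 5.78 and 8.82 CPM with R848. Over the list of chemokine, complement and lipid receptors, 8 of 25 tested genes were higher with R848 and 5 with LPS.

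Cholesterol synthesis and NRF2 target genes had more members higher with R848 than with LPS. Of 24 tested genes of cholesterol synthesis and SREBP2, 12 (50%) were higher with R848 and 1 (4.17%) with LPS, each by less than 2-fold. All tested genes had 13.1% and 13.3%. The median log2 fold change of the list was -0.30. The LPS and R848 groups did not overlap in 4 of the 24, where 22% of all tested genes did not overlap. Stard4, a cholesterol carrier, was at 25.7, 24.3, 26.7 and 31 CPM with LPS and 49.9, 31.7, 49.6 and 52.7 CPM with R848, and R848 mouse 2 was the lowest of the R848 libraries (log2 fold change -0.75 ± 0.09, edgeR adjusted p = 1.03e-05). Sqle, squalene epoxidase, was at 35.2, 34.2, 44.1 and 33.3 CPM with LPS and 59.7, 38.5, 64.2 and 72.2 CPM with R848 (log2 fold change -0.65 ± 0.11), and Hmgcs1, of the first steps of the pathway, at 137, 131, 155 and 139.8 CPM with LPS and 206, 129, 228 and 229 CPM with R848 (log2 fold change -0.46 ± 0.09). R848 mouse 2 lay within the range of the LPS libraries for Sqle and below all of them for Hmgcs1. In both genes the other 3 R848 libraries were above every LPS library. Acat2 was the exception, at 16, 20.8, 25.6 and 16.3 CPM with LPS and 10.6, 11.9, 15 and 11.8 CPM with R848 (log2 fold change 0.67 ± 0.12).

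Of 22 tested targets of NRF2, the factor that responds to oxidants, 9 were higher with R848 and 1 with LPS. Hmox1 (heme oxygenase 1) was at 299, 278, 283 and 229 CPM with LPS and 397, 458, 563 and 605 CPM with R848. In untreated cells Hmox1 was at 283, 287, 323 and 279 CPM. All R848 libraries lay above all LPS and untreated libraries (log2 fold change -0.88 ± 0.11, edgeR adjusted p = 7.63e-06). The subunits of the enzyme that starts glutathione synthesis, Gclc and Gclm, were lower with LPS, Gclc at 27, 34.5, 34.9 and 27.4 CPM with LPS and 51.7, 53.4, 73.4 and 65.1 CPM with R848 (log2 fold change -0.96 ± 0.10) and Gclm at a log2 fold change of -0.83 ± 0.08. Osgin1, an oxidative stress response gene, was at 2.27, 1.87, 1.96 and 2.29 CPM with LPS and 6.23, 6.64, 3.97 and 6.69 CPM with R848 (log2 fold change -1.49 ± 0.20). The one gene higher with LPS was Keap1, the inhibitor of NRF2 (0.54 ± 0.07). Among LXR targets 4 of 13 (30.8%) were higher with R848, among them Scd2, a fatty acid desaturase (-1.32 ± 0.22), and 3 (23.1%) with LPS. Glycolysis and HIF-1 genes were higher with LPS in 6 of 26 (23.1%, beside 13.3% of all tested genes) and with R848 in 1, the prolyl hydroxylase gene Egln3 (-1.26 ± 0.24). The LPS calls were led by Pfkfb3, at 1101, 1138, 1179.9 and 911 CPM with LPS and 241, 434, 482 and 330.2 CPM with R848 (log2 fold change 1.58 ± 0.11), and Hk2, hexokinase 2, at 504, 413, 468 and 344 CPM with LPS and 150.4, 131, 207 and 164 CPM with R848 (log2 fold change 1.41 ± 0.10).

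Most class I genes of antigen presentation were called and most class II genes were not. Of 22 tested class I genes, 18 were higher with LPS and 1, the peptidase gene Erap1, with R848 (-0.29). Of 10 tested class II genes 1 (10%), Cd74 (0.51), was higher with LPS, beside 13.3% of all tested genes. Erap1 and Cd74 were named after their values were seen. Cd74 was at 3663, 157, 139.7 and 182 CPM with LPS and 1747, 113, 96.6 and 175 CPM with R848. In untreated cells Cd74 was at 2868, 110.0, 63.4 and 107 CPM, so the library of mouse 1 was far above those of the other 3 mice in all treatments. Neither call held in every setting: Cd74 was lost with DESeq2, without the mouse block and without mouse 2 or 3 (adjusted p up to 0.657), and Erap1 without the mouse block, with the ligand libraries alone and without mouse 1, 2 or 3 (up to 0.325). Tap1, the peptide transporter, was at 446, 302, 280.4 and 309 CPM with LPS and 84.5, 76.2, 59.3 and 75.5 CPM with R848 (log2 fold change 2.17 ± 0.08, edgeR adjusted p = 2.14e-12), and Nlrc5, the transactivator of class I genes, at 105, 77.7, 72.2 and 86.3 CPM with LPS and 34.4, 36.5, 39.6 and 39.7 CPM with R848 (log2 fold change 1.17 ± 0.10). Tap1 overlaps Psmb9 on the opposite strand, which differed by 1.48 ± 0.09. Cd40, the receptor for help from T cells, was at 752, 634, 730.2 and 673 CPM with LPS and 197, 212, 305 and 332 CPM with R848 (log2 fold change 1.43 ± 0.14), and Cd274 (PD-L1), the inhibitory ligand, at 249, 234, 216 and 225 CPM with LPS and 67.8, 83.8, 95.9 and 80.0 CPM with R848 (log2 fold change 1.5 ± 0.09).

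Of 17 tested genes of prostaglandin and nitric oxide synthesis, 6 were higher with LPS and 1 with R848, the receptor gene Ptger4 (-0.32 ± 0.10), a call that was lost without the mouse block and without mouse 2 or 3 (adjusted p = 0.0603, 0.122 and 0.0891). Nos2, inducible nitric oxide synthase, was at 106, 65.2, 67 and 43.8 CPM with LPS and 15.8, 16.4, 31.5 and 28.7 CPM with R848 (log2 fold change 1.59 ± 0.29, edgeR adjusted p = 5.67e-04), and was not called by DESeq2 (adjusted p = 0.439). Acod1, which makes itaconate, was at 8941, 7707, 8032 and 8063 CPM with LPS and 4428, 3849.5, 4481 and 4810.4 CPM with R848 (log2 fold change 0.90 ± 0.09). Hdc, the enzyme of histamine synthesis, was at 18.2, 15.6, 17.4 and 20.5 CPM with LPS and 1.21, 1.57, 1.74 and 1.42 CPM with R848 (log2 fold change 3.59 ± 0.22), and the prostaglandin receptor gene Ptger2 at 69.4, 54.5, 54 and 53.1 CPM with LPS and 12.6, 13.3, 12 and 10.3 CPM with R848 (log2 fold change 2.25 ± 0.11), where it rose with LPS and fell with R848 from 28.1, 27.1, 29.5 and 31.2 CPM.

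Genes of cell death were higher with LPS in 10 of 23 and with R848 in 2. Bcl2l11 (BIM), a death inducer, was at 526, 544, 635 and 593 CPM with LPS and 239.8, 297, 288 and 249 CPM with R848 (log2 fold change 1.10 ± 0.07), and Mlkl, the executor of necroptosis, at 43.7, 34.4, 35.1 and 35.3 CPM with LPS and 15.4, 18.8, 15.1 and 16.1 CPM with R848 (log2 fold change 1.18 ± 0.11). Bbc3 (PUMA) was at 23.5, 16.5, 16.6 and 15.7 CPM with LPS and 4.42, 4.05, 2.85 and 5.76 CPM with R848. In untreated cells Bbc3 was at 17.7, 18.8, 15.2 and 17.6 CPM, so it fell with R848 (-2.03 on the log2 scale) and was not called with LPS (0.05), and the direct log2 fold change was 2.09 ± 0.16. Inhibitors of death were called in both directions. Mcl1 (0.29 ± 0.07), Cflar (0.38 ± 0.06) and the near-identical copies Bcl2a1a, Bcl2a1b and Bcl2a1d (0.60, 0.54 and 0.64), between which reads may be split, were higher with LPS. Of these 5 only Cflar kept its call under every setting tried (adjusted p up to 0.0555 for Mcl1, 0.256, 0.0505 and 0.269 for the copies). The other call with R848 besides Bcl2 was the death inducer Pmaip1 (-0.76 ± 0.11). Bcl2 was higher with R848, at 2.04, 2.02, 3.08 and 2.15 CPM with LPS and 5.75, 4.59, 3.83 and 4.05 CPM with R848 (log2 fold change -0.99 ± 0.25), though not without mouse 2 (adjusted p = 0.0545). Of the cell cycle lists, 3 of 36 G1/S genes (8.33%) and 0 of 32 G2/M genes were higher with LPS, beside 13.3% of all tested genes, and 5 (13.89%) and 4 (12.5%) with R848, near the 13.1% of all tested genes. Ccnd2, cyclin D2, was by far the largest of them, at 112, 78.4, 77.4 and 77.2 CPM with LPS and 10.4, 10.1, 11.1 and 9.89 CPM with R848 against 2.98, 1.60, 1.22 and 1.10 CPM untreated (log2 fold change 3.04 ± 0.13). E2f2 was lower with LPS (-0.99 ± 0.24) except without mouse 2 (adjusted p = 0.0618), and Tk1 was lower with LPS at -0.74 ± 0.14.

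Ptch1, the receptor of Hedgehog ligands, belonged to none of the lists and was chosen after its values were seen. It was at 93.2, 75.4, 97.7 and 78.6 CPM with LPS and 5.87, 4.05, 3.90 and 3.13 CPM with R848. In untreated cells Ptch1 was at 7.13, 9.67, 10.5 and 8.58 CPM, so it rose with LPS (3.25 on the log2 scale) and fell with R848 (-1.08), with a direct log2 fold change of 4.33 ± 0.15 (edgeR adjusted p = 7.04e-13).

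The direction of the comparison was next examined in the Lyn-deficient mice, whose libraries were not in the fit of the 12 WT libraries. Their calls came from a joint fit of the 32 LPS and R848 libraries of all genotypes. The WT ligand libraries thus entered its estimates of spread, so the calls are not fully independent of WT and the models differ. In LynAKO, LynBKO and LynKO macrophages, 2077, 2089 and 1737 genes were higher with LPS (14.9%, 14.9% and 12.4% of those tested) and 1688, 1678 and 1280 higher with R848 (12.1%, 12% and 9.15%). LynAKO shared 1573 genes higher with LPS with WT, which is 84.4% of the WT list and 75.7% of its own, LynBKO 1563 (83.9% and 74.8%) and LynKO 1403 (75.3% and 80.8%). Of the genes higher with R848 in WT, 65.6%, 65.2% and 50.8% were called in the 3 genotypes (71.1%, 71% and 72.7% of their own lists). No gene was called in opposite directions. Of the 101 interferon-response genes, 95, 95 and 94 were higher with LPS, with medians of 2.21, 1.96 and 1.97 on the log2 scale beside 2.16 in WT.

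Whether the ligand difference itself changed with genotype was tested over the 32 LPS and R848 libraries. No gene passed in LynAKO, LynBKO or LynKO against WT (edgeR; 407, 466 and 668 genes, or 2.91%, 3.33% and 4.78%, at an unadjusted p under 0.05; 0 with DESeq2 in each). With no filter on low counts 5 genes passed in LynBKO and 14 in LynKO. The smallest p in LynKO was that of Irf7, whose difference between ligands was 1.68 there and 2.55 in WT (knockout minus WT -0.88 ± 0.20, edgeR adjusted p = 0.922), followed by those of Trim12a and Dhx58 (-0.51 ± 0.12 and -0.55 ± 0.13, with the same adjusted p). Of the 101 interferon-response genes, 78 had a lower value in LynKO than in WT, 77 in LynBKO and 28 in LynAKO, with median differences of -0.13, -0.12 and 0.07, and 18, 7 and 4 of them had an unadjusted p under 0.05. These 3 differences share the WT libraries.

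**Figure D5:**
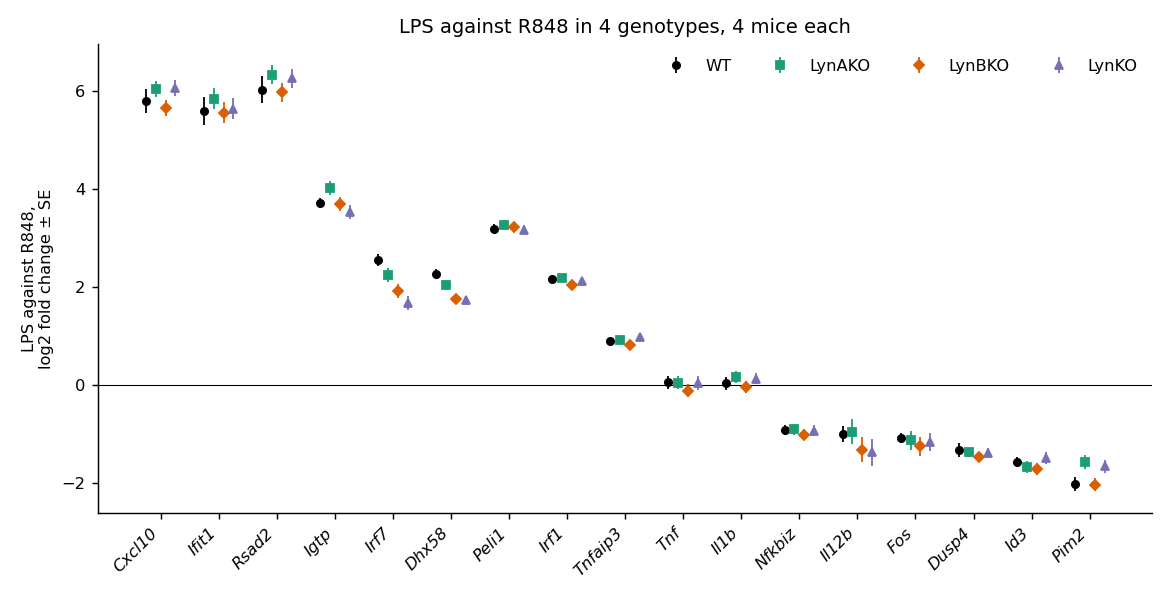
Log2 fold change of LPS against R848 for 17 genes in WT, LynAKO, LynBKO and LynKO macrophages (4 mice each), with bars for the SE from edgeR. Each gene called in WT lies on the same side of 0 in all 4 genotypes, Tnf and Il1b lie near 0, and for Irf7 the LynKO value is 1.68 against 2.55 in WT, a difference that was not called.

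The 2 female and 2 male WT mice differed in the size of the ligand difference for 182 genes (1.3% of those tested), 69 with a higher and 113 with a lower value in females (edgeR, treatment by sex with the mouse as a block). With 2 mice of each sex, sex and mouse cannot be told apart, and without mouse 4 only 3 genes were called, against 85, 667 and 115 without mice 1, 2 and 3. Il12b was among them: its LPS minus R848 difference, female minus male, was -1.21 ± 0.16 on the log2 scale. Ptges, the prostaglandin E synthase, was at 453, 392, 457 and 314 CPM with LPS and 185, 205, 437 and 408 CPM with R848, higher with LPS in both males and overlapping in the females (female minus male -1.27 ± 0.15). In the 12 knockout mice, 6 of each sex, 0 genes were called for the same difference (edgeR), with 2074 (14.8%) at an unadjusted p under 0.05, and Il12b and Ptges were at -0.67 and -0.64. The labels of LynBKO mice 2 and 3 give the untreated library the opposite sex from the ligand libraries. Untreated libraries did not enter that fit, and in its 24 ligand libraries Xist, which female cells express, was counted 5066 to 7725 times under a female label and 0 or 1 times under a male one.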

How the data were processed

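RNA of 48 libraries (4 genotypes, 3 treatments, 4 mice each, polyA-selected, paired-end) was counted per gene. The submitters' processing notes name, for the authors' counts, the build GRCm38 and the tools featureCounts, Subread 1.5.2, STAR 2.5.2b, DESeq2 and Trimmomatic 0.36. Annotation release and strand setting were not given in the sources used here. The deposited table holds raw counts of 49315 genes, and 49056 matched GENCODE M21 for coordinates and overlaps. The authors' transformed table was not used.

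Genes with a minimum count of 10 (filterByExpr over the 12 groups) were kept, leaving 13986. Counts were TMM-scaled and fitted with edgeR 4.0.16 (R 4.3.3) by the quasi-likelihood test on the 12 WT libraries, with the mouse as a block, Benjamini-Hochberg adjustment over all genes and a threshold of 0.05. Fold changes are LPS over R848, with SE from the test statistic. Groups and pairs come from the labels. Same-numbered libraries of different treatment correlated in their deviations at 0.1147 to 0.2522 (12 pairs), others at -0.2095 to 0.07755 (36), so the mouse pairs them. With the mouse as a block, the p-values measure how far the treatment differences vary from mouse to mouse, not the spread in level between mice. Calls within each knockout genotype and genotype differences used a joint fit of the 32 ligand libraries, and sex differences the 12 WT libraries, all with the mouse block. DESeq2 1.42.0 was an alternative, and the fit was tested on simulated data. Promoters were taken from RefSeq, GRCm38.p6, for 10020 of the 13986 genes.

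Total counts set the precision of each value, and counts of few reads carry large errors. Members and lists were chosen with earlier results of these data known. The genes named were taken from the largest 15 each way (mean of at least 5 CPM, groups that did not overlap, the same sign in 4 mice) and the up to 4 smallest p each way per list. A few more were named for their role. Not every gene that met these rules is named. Ptch1, Erap1, Cd74, Ptger4, Pmaip1, Mcl1, Cflar, the Bcl2a1 copies, Junb, Fosl2, Mafg, Cxcl3 and Cxcl5 were named after their values were seen. Results for some genes are not reported here.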

Additional observations from a re-analysis of the deposited data

Results flagged for a closer look

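In 32 of 344 groups of 4 libraries, 1 library lay so far from the other three that the gap, as a share of the whole range, passed Dixon's 95% critical value, which chance does in about 1 in 20 groups. The LPS library of mouse 1 was the one apart in 15 of these 32. It was the highest for Cd14 (5750.5 CPM), Ccl3 (1828 CPM), Myd88 (391 CPM), Ccnd2 (112 CPM), Ptger2 (69.4 CPM), Dusp4 (49.5 CPM), Mlkl (43.7 CPM), Bbc3 (23.5 CPM), Plk3 (13.4 CPM) Cd163 (11 CPM), Junb (2100.3 CPM) and Cd74 (3663 CPM). It was the lowest for Ifit1 (789 CPM), Ccr2 (30.5 CPM) and Tlr3 (23.2 CPM).

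Among the other LPS libraries, mouse 2 was apart for Gbp7 (105 CPM, highest) Tnf (2316 CPM, lowest) and Fosl2 (261 CPM, lowest). Mouse 3 was highest for Cxcl1 (892 CPM), Ifit1bl1 (28.6 CPM) and Bcl2 (3.08 CPM) and lowest for Tlr9 (11.2 CPM). Mouse 4 was highest for Ifnb1 (1.53 CPM). Among the R848 libraries, mouse 1 was highest for Ifih1 (62.1 CPM) and Cd74 (1747 CPM) and lowest for Irgm2 (14 CPM). Mouse 2 was highest for Fos (72.2 CPM) and lowest for Stard4 (31.7 CPM) and Tnfsf15 (5.38 CPM). Mouse 3 was lowest for Osgin1 (3.97 CPM) and highest for Cflar (1089.6 CPM), and mouse 4 highest for Ifit1bl2 (0.213 CPM).

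The ligand difference differed between the 2 female and 2 male WT mice for 182 genes (edgeR, treatment by sex), of which the 5 each way with the smallest p are given. The LPS minus R848 difference on the log2 scale was higher in females for Cytip by 1.5, for Trps1 by 1.04, for Rasa3 by 1.03, for Arl4c by 0.90 and for Cerk by 0.83. Cytip, a cytohesin-binding protein of leukocytes, was at 25.3, 40.3, 38.5 and 48.6 CPM with LPS and 83.6, 91.7, 53.3 and 32.6 CPM with R848, so the order of the ligands differed between mice 1 to 3 and mouse 4. Female minus male was -2.08 for the adenylate kinase gene Ak4, -1.86 for the transporter gene Slco3a1, -1.27 for Ptges, -1.21 for Il12b and -1.03 for Ccl4. In the knockout mice, where 0 genes were called, these values were 0.75, 0.62, 0.60, 0.60 and 0.40 for the first 5 and -1.07, -1.01, -0.64, -0.67 and -0.57 for the others, each of the same sign as in WT.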

How the results depend on the processing

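Of 172 genes followed over the settings, 146 kept their direction and their side of the threshold under every setting tried. Not all of the 172 are named above. The settings were no replicate block, RLE size factors, DESeq2, no filter, the filter over the WT groups, the 8 ligand libraries alone, and each mouse left out. Ifnb1 and Cxcl5 were not tested with the filter over the WT groups. Of 157 calls, 16 were lost under at least 1 setting (Cxcl1, Ccl4, Egr1, Marco, Tlr9, Tlr13, Nos2, Bcl2, E2f2, Mcl1, Bcl2a1a, Bcl2a1b, Bcl2a1d, Ptger4, Erap1 and Cd74) and 4 uncalled genes passed under at least 1 (Dusp1, Tlr7, Cd14 and Ptgs2). Near 0, 6 genes changed sign without 1 mouse: Cxcl3 (-0.0533 to 0.2539, below 0 without mouse 1 or 2), Ccl3 (-0.2238 to 0.0953, above 0 without mouse 3 or 4), Tnf (-0.0552 to 0.1942, below 0 without mouse 1 or 2), Il1b (-0.0578 to 0.1641, below 0 without the same mice), Ticam1 (-0.1260 to 0.0642, above 0 without mouse 3 or 4) and Csf3 (-0.1756 without mouse 2 to 0.6557).

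The count of called genes was 3692, and 2932 without the replicate block (1529 higher with LPS and 1403 with R848), 3627 with RLE, 3596 with DESeq2 and 3278 with the 8 ligand libraries alone. RLE moved the split to 1979 higher with LPS and 1648 with R848, and DESeq2 to 1977 and 1619. With a mouse left out the counts ran from 2363 to 3377 in all, from 1351 to 1752 higher with LPS and from 954 to 1625 higher with R848. The first and the last were lowest without mouse 3 and the count higher with LPS without mouse 2. A minimum of 2-fold left 733, 555 and 178. With no filter, 5 genes in LynBKO and 14 in LynKO were called for the genotype difference, beside 0 with it. The sex difference gave 182 genes, 278 with the ligand libraries alone, 321 with no filter, 0 in the knockout mice, and 3 to 667 with a mouse left out. The promoter share was 12.71%, 7.054% with the longer motif and 21.94% at 2-fold or more. The cause of these changes was not tested. Low counts limit Ifnb1, Cxcl9, Il12a and Lpar6.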
